A study of Mus musculus with 65 samples.

Results

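The 53 genes described here encode proteins of the cytosolic ribosome. They are the genes whose platform annotation gives 1 symbol beginning with Rpl or Rps, without the S6 kinases, and they were read from 93 features of the NIA mouse cDNA array (B filter). Features of 1 gene were averaged. Of the 53, 35 belong to the large (60S) and 18 to the small (40S) subunit, out of 4209 named genes in all. A further 21 features that name a ribosomal protein gene beside other symbols were left out.

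Spinal cord RNA of 65 C57BL/6 mice was hybridized, 1 array for each mouse. The diets were caloric restriction (CR, 25 mice on the regular ration to 13 weeks of age, then stepped down to 60% of the feed) and ad libitum feeding (AL, 40 mice). CR mice were 8 of 6 months (174 to 194 days), 10 of 16 months (472 to 499 days) and 7 of 24 months (673 to 743 days). AL mice were 10 juveniles of 17 to 44 days, 10 mice of 6 months (169 to 194 days), 10 of 16 months (476 to 499 days) and 10 of 24 months (704 to 743 days), and no juvenile was on CR. All mice carried the same strain background, both sexes were in every group, and whole cord was used, so fewer cells of a type and less RNA per cell cannot be told apart. Of the cell type markers listed for the cord, 3 of 11 for neurons, 1 of 10 for oligodendrocytes, 3 of 8 for astrocytes and 6 of 12 for microglia were on this filter.

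The ribosome decodes mRNA in its small subunit and forms peptide bonds in its large subunit, and most of its proteins are present once in each subunit. Mammalian ribosomal protein mRNAs begin with a run of pyrimidines, the 5' terminal oligopyrimidine (TOP) motif, through which mTOR signaling sets how well they are translated. Nutrient supply acts on that pathway, and CR lowers its activity in several rodent tissues. These genes also have many processed pseudogenes and paralogs, so that a cDNA clone can hybridize to more than 1 copy.

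The annotated starts of 5 genes on which later paragraphs turn are shown with 70 bases before and 30 bases from the start (RefSeq, GRCm38.p6, given 5' to 3' on the gene's strand). Capitals mark matches to the motifs searched. The pyrimidine run CTTTCC was searched on the gene's strand. A second such run, CTTTTC, was searched in the same way and can overlap the first. The ETS factor core CGGAAG was searched on both strands, as was the TATA box TATAAA. The YY1 core AAGATGG was also searched on both strands. Rpl24 and Rps28 had the smallest p between 24 and 6 months, Rplp0 had the smallest between 16 and 6 months on CR, and Rps3a1 and Rpl4 followed the other members most closely between mice.
Rpl24, chr16:55966205-55966304, plus strand: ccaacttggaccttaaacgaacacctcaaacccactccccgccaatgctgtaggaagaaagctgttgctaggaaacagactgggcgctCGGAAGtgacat
Rps28, chr17:33824533-33824632, minus strand: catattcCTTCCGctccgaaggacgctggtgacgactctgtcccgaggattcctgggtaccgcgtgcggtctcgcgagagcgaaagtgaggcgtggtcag
Rplp0, chr5:115559397-115559496, plus strand: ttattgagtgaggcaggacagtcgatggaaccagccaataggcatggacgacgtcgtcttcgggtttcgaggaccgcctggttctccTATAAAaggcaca
Rps3a1, chr3:86142639-86142738, minus strand: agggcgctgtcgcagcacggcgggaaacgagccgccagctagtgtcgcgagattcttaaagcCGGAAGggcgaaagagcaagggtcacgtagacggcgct
Rpl4, chr9:64173317-64173416, plus strand: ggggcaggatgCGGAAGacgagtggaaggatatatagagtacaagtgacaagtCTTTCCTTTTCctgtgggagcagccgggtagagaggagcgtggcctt

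Promoter windows of 300 bases (250 before and 50 from the start) were matched for 43 of the 53 genes. CGGAAG lay in 28 of the 43 (65.1%), against 18.8% of 27025 genes with a window. CTTTCC lay in 15 (34.9%, against 16.0% of all genes) and CTTTTC in 10 (23.3%, against 12.9%). The motif AAGATGG lay in 6 (14.0%, against 7.3%) and TATAAA in 4 (9.3%, against 15.7%). CGGAAG, with its reverse complement CTTCCG, was thus the motif whose share differed most from that of all genes.

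Values are Z scores, in which 0 is the mean and 1 the SD of all features on an array, and differences are in the same units. Over all mice, 48 of the 53 genes had a mean Z above 0, against 45.9% of named genes, and their median was 0.458 against -0.079. Mean Z was lowest for Rpl22l1, a paralog of Rpl22 (-0.42), Rps9 (-0.259) and Rplp0 (-0.0735), and highest for Rpl8, a protein near the peptidyl transferase center (1.86), Rpl39 (1.43) and Rpl31 (1.29). A level of 1 feature depends on its clone, so that these are descriptions and no order of transcript number.

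A division of the arrays into 2 runs, absent from the labels, was seen along the first principal component of all features. That component, computed without arrays 31 to 33, held 36.0% of the variance and placed 41 arrays in run 1 and 21 in run 2. Arrays 31 to 33 were counted with run 2 because their numbers lie between those of run 2 arrays. These 3 arrays, all from 6-month mice, stood apart from the rest: their correlations with the mean of the other mice of their age and diet were 0.924, 0.897 and 0.732, against at least 0.963 for any of those others. The mean Z of the 53 genes was 0.179 on array 31 (CR male), 0.0917 on array 32 (CR female) and -0.172 on array 33 (AL male). In the other 62 mice it lay between 0.322 and 0.586, so that these arrays had the lowest values of the series.

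**Figure D1:**
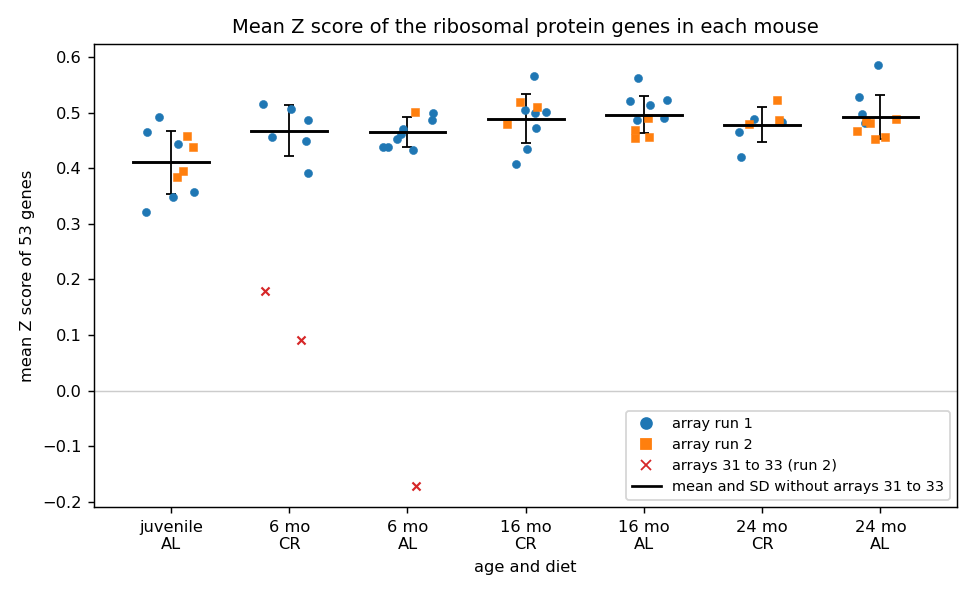
Mean Z score of the 53 ribosomal protein genes (vertical axis) in each mouse, by age and diet, with circles for array run 1, squares for run 2, crosses for arrays 31 to 33, and bars for mean and SD without those 3 arrays. The crosses lie at 0.179, 0.0917 and -0.172, below the other 62 mice, and the juveniles have the lowest mean of the remaining groups.

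On array 33, 50 of the 53 genes were below the mean of the other 6-month AL mice, by a median of 0.611. Of all named genes 59.2% were below it, and their median was 0.149 below. The widest gap was that of Rps9, a protein of the 40S body, at 1.55 below, while Rpl7l1, an Rpl7-like gene, was 1.05 above. On arrays 31 and 32, 45 and 47 genes were below the other 6-month CR mice, by medians of 0.332 and 0.402. Of named genes 51.8% and 56.2% were below, with medians of 0.0125 and 0.0583 below. Rps12 was lowest on array 31 (0.723 below) and Rpl13a on array 32 (0.953 below), and Rpl7l1 had the largest gap upward on both. Most of the ribosomal protein genes were therefore lower on these arrays, by more than named genes as a whole. They also had a higher level than named genes (median mean Z 0.458 against -0.079). Named genes of like level were not set beside them, so whether the shift was particular to these genes was not tested. Many named genes were displaced too. On arrays 31, 32 and 33, 37.5%, 42.9% and 48.5% of them lay below every other mouse of that age and diet, beside 42, 44 and 50 of the 53. Sizes of displacement regardless of sign were not compared. Medians that rest on 6-month mice are mostly given with and without these arrays. Several values of single genes are given with all arrays only.

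The first comparison is that of growing with adult cord. With all arrays, 18 of 53 genes were higher in 6-month than in juvenile AL mice and the median difference was -0.019. Without arrays 31 to 33, 51 of 53 were higher and the median was 0.047, against 55.2% of all rows tested and a median of 0.007. With the array run also in the fit, 51 were again higher (median 0.0421). Within run 1 52 genes were higher (median 0.0437), and within run 2, which then held 1 mouse of 6 months, 43 were higher (median 0.0862). None of the 53 passed an adjusted p of 0.05 in limma with Benjamini-Hochberg adjustment, with or without the 3 arrays. Of all 7782 rows, 0.141% passed it with all arrays. At an unadjusted p under 0.05 stood 1 gene with all arrays (background 2.71% of rows) and 8 genes, or 15.1%, in the run-adjusted fit without the 3 arrays (background 3.93%), all 8 higher at 6 months.

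As a mean over the 53 genes, Z was 0.465 ± 0.0266 in 6-month AL mice without array 33 (SD, n = 9) and 0.411 ± 0.0569 in juveniles (n = 10). The lowest, median and highest were 0.433, 0.462 and 0.502 at 6 months and 0.322, 0.417 and 0.492 in juveniles. All 9 of the 6-month mice were above the juvenile median and 2 of them were above every juvenile, so the groups overlapped. No single member was free of overlap between these ages. The share of all rows free of overlap was not counted, so this is no trait of the members. The difference between these means was smaller than the SD among juveniles.

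Rps3a1, a 40S protein of the body, had the smallest p in that run-adjusted fit. Its lowest, median and highest Z were 0.517, 0.593 and 0.667 in 6-month AL mice without array 33, and 0.433, 0.50 and 0.61 in juveniles. All 9 adults were thus above the juvenile median, with overlap. The run-adjusted difference was 0.0783 (SE 0.0274, limma adjusted p = 0.86), and with all arrays it was -0.004 (SE 0.0632, adjusted p = 1.0), so that its sign rested on array 33. Rpl35a, a 60S protein mutated in some patients with Diamond-Blackfan anemia, had the smallest p with all arrays. Its values were -0.05, 0.02 and 0.24 at 6 months (lowest, median and highest, n = 10) and -0.20, -0.055 and 0.05 in juveniles. That difference was 0.111 (SE 0.0462, adjusted p = 0.984) with all arrays and 0.0863 with the run in the fit.

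The other genes named by smallest p at this step were Rpl7l1, Rps9, Rpl32 and Rps13. For Rpl7l1 the difference was 0.366 (SE 0.234), and it rested on 1 juvenile female at a Z of -3.47. Without that mouse it was -0.0205. Differences for Rps9 and Rps13 were -0.138 and -0.061 with all arrays, but 0.0168 and 0.005 without arrays 31 to 33. For Rpl32, a 60S protein, it was 0.044 with all arrays and 0.079 without them. The signs for Rps9 and Rps13 thus rested on array 33, and that for Rpl7l1 on the juvenile female.

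Juveniles themselves were compared across 25 days of age. Older juveniles had 15 of 53 genes higher than younger ones, with a median difference of -0.0458 (-0.0575 to -0.0192 with each juvenile left out in turn), and none passed the adjusted test (background 0.0%) nor an unadjusted p of 0.05 (background 2.25%). Rpl24 differed by -0.133 (SE 0.0829), and Rpl7l1 by 0.483 (SE 0.315), which became -0.153 without the female at -3.47. Rpl19, a 60S protein at the tunnel exit, differed by -0.0983, Rpl7a by -0.0929 and Rpl10a by -0.0608. Among the 10 juveniles the SD was 0.128 for Rpl24, 0.102 for Rpl19 and 0.0494 for Rpl10a, so that the differences of Rpl24 and Rpl10a exceeded it. Younger juveniles were more often in run 2 than older ones, and these values are not adjusted for the run.

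In adults on AL, the 53 genes lay higher at both older ages than at 6 months when all arrays were used. Between 16 and 6 months, 51 of 53 were higher, with a median of 0.104 where the median row was at 0.01. At 24 against 6 months 51 were again higher, with a median of 0.094 where the median row was at -0.003. These comparisons share the 6-month mice, and array 33 is among them. No gene passed an adjusted p of 0.05 in either (background 0.0257% and 0.0643% of rows). At an unadjusted p under 0.05 stood 15 genes (28.3%, background 13.3%) at 16 months and 11 genes (20.8%, background 13.0%) at 24 months, all higher.

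Without arrays 31 to 33 the median at 16 against 6 months was 0.0357 with 43 of 53 genes higher, and at 24 against 6 months 0.0226 with 40 higher. Adding the run gave 0.0382 and 0.0335, each with 46 genes higher, and 7 genes (background 6.72%) and 4 genes (background 3.74%) at an unadjusted p under 0.05. Within run 1, 50 and 49 genes were higher, with medians of 0.0625 and 0.0646. Within run 2, where 1 mouse of 6 months remained, 12 and 17 were higher, with medians of -0.042 and -0.0398. The size of the adult age difference thus depended on array 33, and its sign differed between the runs.

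Without array 33, mean Z over the genes in AL mice was 0.465 ± 0.0266 at 6 months (n = 9), 0.497 ± 0.0336 at 16 months (n = 10) and 0.492 ± 0.0392 at 24 months (SD, n = 10). The lowest, median and highest were 0.433, 0.462 and 0.502 at 6 months, 0.454, 0.491 and 0.562 at 16 months and 0.453, 0.483 and 0.586 at 24 months. Of the older mice, 8 of 10 at either age exceeded the 6-month median, and 4 of 10 at 16 months and 2 of 10 at 24 months exceeded every 6-month mouse. Both differences were larger than the SD at 6 months and smaller than the SD of the older group.

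**Figure D2:**
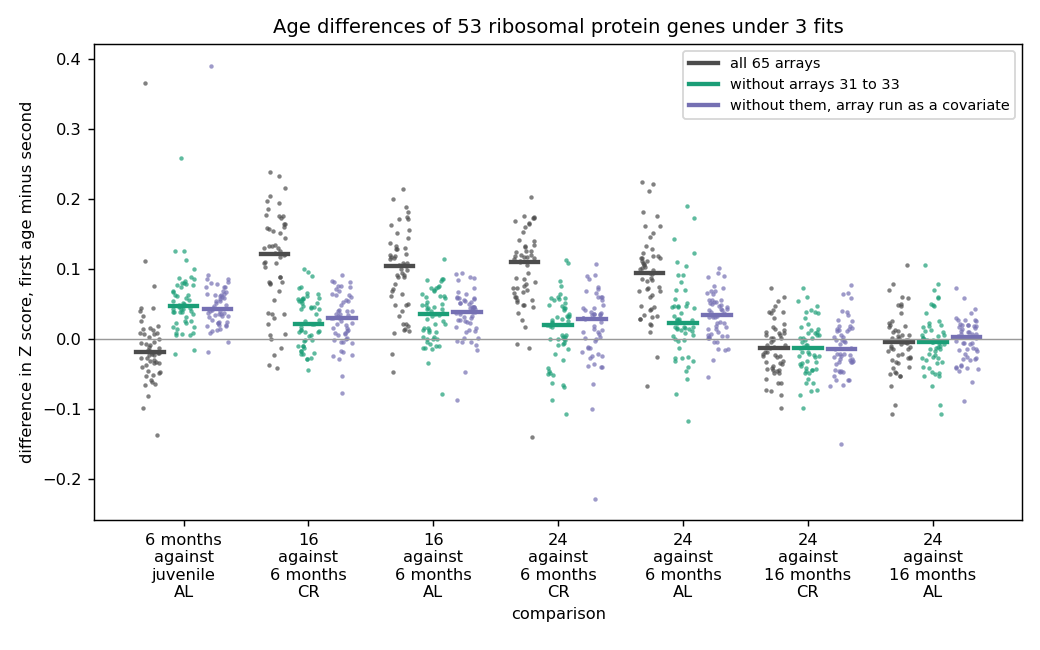
Difference in Z score (vertical axis, first age minus second) of each of the 53 genes in 7 age comparisons, with all 65 arrays in grey, without arrays 31 to 33 in green and with the array run also in the fit in purple, and bars for medians. The grey medians of the 4 comparisons of older adults with 6-month mice lie between 0.094 and 0.122, whereas the green and purple ones lie between 0.0202 and 0.0382.

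Rpl24, a 60S protein whose mouse mutation causes the Belly spot and tail phenotype, had the smallest p of any member in adults on AL. Its Z ran over 0.62, 0.775 and 0.93 (lowest, median and highest) in the 24-month mice and over 0.20, 0.56 and 0.84 in the 6-month mice, 10 of each. All 24-month mice were above the 6-month median, and the ranges overlapped. The difference was 0.211 (SE 0.0579, limma adjusted p = 0.334), and 0.0758 (SE 0.0385, adjusted p = 0.997) without the 3 arrays and with the run in the fit. Rpl24 was called in the alternatives with rounds of 14 arrays as a block (0.211, SE 0.0514, limma adjusted p = 0.0354), where it was the single member called (1.89%, background 1.03%). It was also called with array weights (0.20, SE 0.047, limma adjusted p = 0.00514), and it was the single member taken by the methods' selection (background 1.75%). Rpl24 was higher in run 2 than in run 1, and within the runs the 24-month difference was 0.124 and 0.00546. The value of run 2 rests on 1 AL mouse of 6 months. On CR its values were 0.48, 0.65 and 0.90 at 24 months (n = 7) and 0.52, 0.58 and 0.71 at 6 months (n = 8).

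Rps28, a 40S head protein at the mRNA exit, had -0.16, 0.09 and 0.17 in 24-month AL mice and -1.09, -0.065 and 0.06 in 6-month AL mice. Array 33 was the mouse at -1.09, and without it the 6-month values began at -0.22. That difference was 0.222 (SE 0.0765, adjusted p = 0.334) with all arrays and 0.0901 with the run in the fit. Rps29, a zinc-binding protein of the 40S head, had 0.60, 0.67 and 0.78 at 24 months and 0.29, 0.59 and 0.70 at 6 months, again with array 33 lowest. Its difference was 0.115 (SE 0.0466, limma adjusted p = 0.342) with all arrays and 0.101 (SE 0.0342, limma adjusted p = 0.997) with the run in the fit. Within the 2 runs it was 0.115 and 0.139. Run 2 then held 1 AL mouse of 6 months, whose Rps29 of 0.53 was the lowest at that age without array 33. Rps29 thus kept a difference of 0.082 or more under these choices, and was not called under them. Rpl23a, at the tunnel exit, and Rps15, of the head, completed the 5 with the smallest p. They differed by 0.146 and 0.102, and by 0.0335 and 0.0431 in the run-adjusted fit. With array weights, 6 members (11.3%) were called against a background of 22.2%. Higher at 24 months were Rpl24, Rps28 (0.151), Rpl23a (0.148), Rpl10a (0.107) and Rpl11 (0.218), and Rpl21 was lower (-0.153).

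At 16 against 6 months on AL, the smallest p belonged to Rpl23, a 60S protein at the subunit interface. It had 0.53, 0.61 and 0.70 at 16 months and -0.34, 0.53 and 0.59 at 6 months, array 33 being the lowest. The difference was 0.174 (SE 0.0593, limma adjusted p = 0.338) with all arrays and 0.0887 (SE 0.0311, limma adjusted p = 0.695) in the run-adjusted fit. Within the runs it was 0.0996 and 0.10, where run 2 held 1 AL mouse of 6 months. For Rps13, of the 40S body, the difference was 0.128 with all arrays and 0.0864 (SE 0.0261, limma adjusted p = 0.62) in the run-adjusted fit, where it had the smallest p of the members. Rpl19, Rps15 and Rpl24 differed by 0.156, 0.109 and 0.152 with all arrays and by 0.0837, 0.0509 and 0.0558 in the run-adjusted fit. With all arrays, Rpl39 (-0.047) and Rpl7l1 (-0.022) stood against the sign of the other members at 16 months. Rpl21 (-0.067) and Rps26 (-0.026) did so at 24 months. Array 33 held the highest Rpl7l1 of the 6-month AL mice (1.36), and the sign of Rpl7l1 at 16 months rested on it.

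Markers of other cell types also differed over these ages. The mean Z of the 6 measured microglial genes was 0.01 at 6 months, 0.129 at 16 months and 0.167 at 24 months in AL mice without array 33, within ranges of -0.083 to 0.068, 0.026 to 0.262 and 0.093 to 0.269. At 24 against 6 months 2 of the 6 passed the adjusted test with all arrays, and 1 without arrays 31 to 33. The 3 neuronal genes averaged 0.481, 0.441 and 0.371 in the same order of ages (ranges 0.313 to 0.568, 0.27 to 0.655 and 0.172 to 0.642). The 5 genes of meninges and connective tissue averaged 0.472, 0.452 and 0.405 (0.411 to 0.518, 0.372 to 0.536 and 0.314 to 0.50), and the 3 astrocyte genes 0.269, 0.326 and 0.332 (0.147 to 0.35, 0.255 to 0.39 and 0.132 to 0.438). None of these 11 genes was called at either older age against 6 months. Gsn, the measured oligodendrocyte gene, averaged 0.25 at 6 months (0.07 to 0.44) and 0.473 in juveniles (0.31 to 0.64). The part of these cell types in the values of the ribosomal protein genes was not tested.

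Between 24 and 16 months on AL, 22 of 53 genes were higher and the median difference was -0.00467, with no gene at an adjusted p under 0.05 (background 0.0%) or an unadjusted p under 0.05 (background 2.0%). The smallest p were those of Rpl10a, of the L1 stalk (0.0485), Rpl21 (-0.107), Rpl39 (0.079), Rpl11, of the 5S particle (0.07), and Rpl24 (0.059). Their SEs were 0.0354, 0.0828, 0.0654, 0.066 and 0.0579. Arrays 31 to 33 are not in these ages.

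CR mice gave age differences of like size with all arrays. Between 16 and 6 months 48 of 53 genes were higher with a median of 0.122, and at 24 against 6 months 50 were higher with a median of 0.11. No gene was called (background 0.0% and 0.0257%). At an unadjusted p under 0.05 stood 17 genes at 16 months (32.1%, background 6.87%) and 4 genes at 24 months (7.55%, background 8.75%), all higher. Without arrays 31 to 33 the medians were 0.0212 and 0.0202, with 37 and 33 genes higher, and 1 gene (1.89%) at either age was at an unadjusted p under 0.05 (background 2.06% and 12.5%). In run 1, which held all 6 remaining 6-month CR mice, the medians were 0.0175 and 0.00211.

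Rplp0, which anchors the stalk that recruits elongation factors, had the smallest p at 16 against 6 months on CR. Its Z was -0.16, -0.025 and 0.15 at 16 months (n = 10) and -0.66, -0.08 and 0.01 at 6 months (n = 8). Arrays 31 and 32 were the 2 lowest 6-month mice, at -0.66 and -0.64. That difference was 0.233 (SE 0.0646, limma adjusted p = 0.458), 0.0898 without the 3 arrays and 0.0833 with the run in the fit. It passed the threshold in 1 setting, when 6-month CR male replicate 1 was left out and both low arrays stayed (0.316, adjusted p = 0.0124). The methods' selection took Rpl3 and Rps7 here (background 0.694%), with z-ratios of 2.09 and 1.61. On CR, mean Z of Rpl3 was 0.205 at 16 months and 0.0 at 6 months. Without arrays 31 and 32 its 6-month mean was 0.138. For Rps7 these means were 0.241, 0.0825 and 0.188 in that order. The differences of these genes were thus smaller without those arrays. Whether the selection would take them without those arrays was not tested. Rpl35, Rps29, Rps19 and Rpl22l1 differed by 0.16, 0.132, 0.197 and 0.132, and by 0.0336, 0.0685, 0.0555 and 0.0626 in the run-adjusted fit. At 24 against 6 months on CR, Rpl35 and Rplp0 differed by 0.16 and 0.176 with all arrays, and by 0.0293 and 0.0239 in the run-adjusted fit. The corresponding pairs for Rpl7, Rps19 and Rpl23a were 0.12 and 0.0372, 0.173 and 0.0304, and 0.118 and 0.0187.

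At 24 against 16 months on CR, 21 of 53 genes were higher, with a median of -0.0133. No gene was past an adjusted p of 0.05 (background 0.0%) or an unadjusted p of 0.05 (background 5.29%). Rpl34 and Rpl32, both 60S proteins, differed by 0.0723 (SE 0.0391) and 0.0601 (SE 0.0378), and Rps29, Rpl13 and Rps6 by -0.0631, -0.0745 and -0.0487. Rps6, the substrate of the S6 kinases, is the member most often used to read mTOR activity, through its phosphorylation and not its mRNA.

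**Figure D3:**
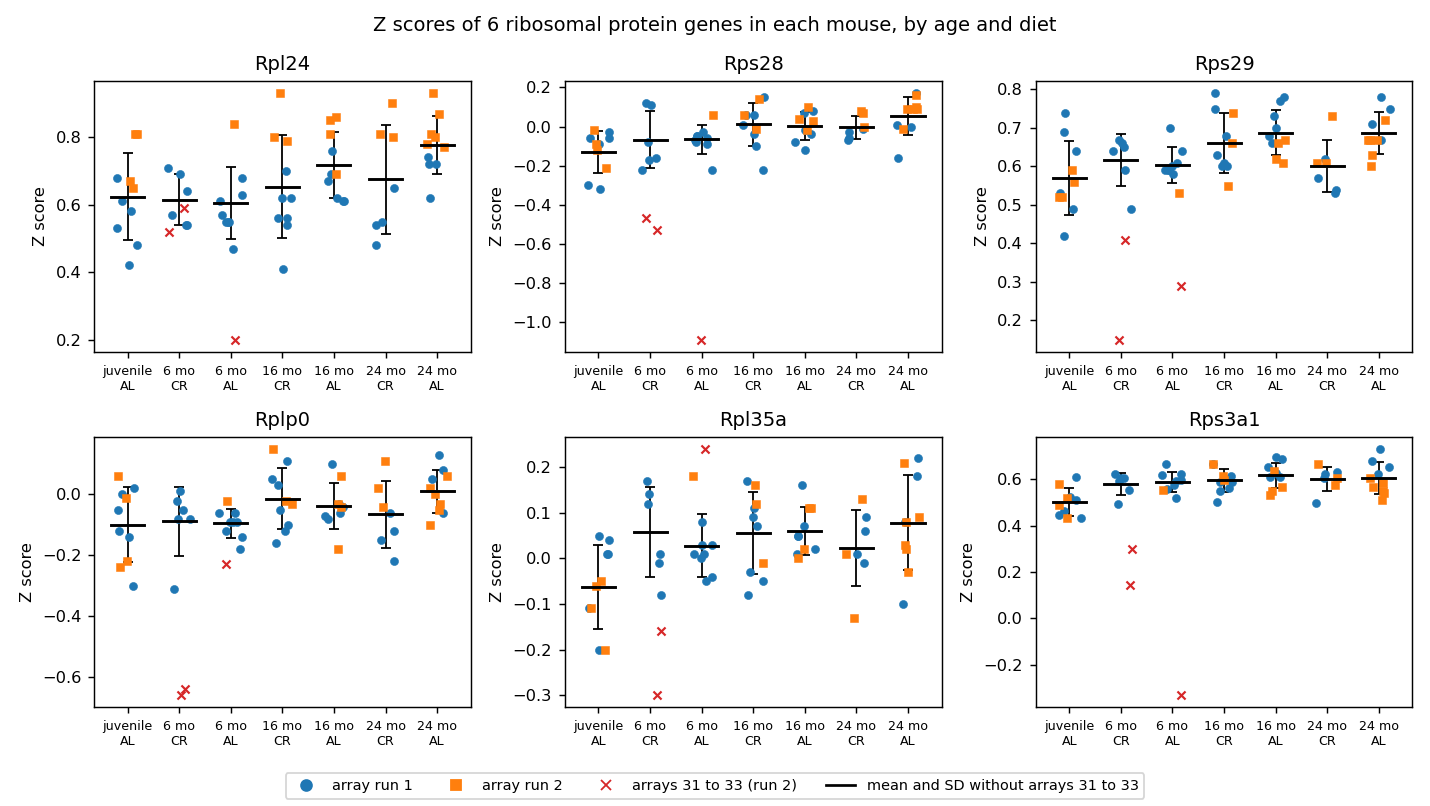
Z score (vertical axes) of Rpl24, Rps28, Rps29, Rplp0, Rpl35a and Rps3a1 in each mouse by age and diet, with circles for run 1, squares for run 2, crosses for arrays 31 to 33 and bars for mean and SD without them. The crosses are the lowest values of the series for Rps28, Rps29 and Rps3a1, down to -1.09 for Rps28, the CR crosses are the lowest for Rplp0, and the squares of Rpl24 lie mostly above its circles.

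Caloric restriction was compared with AL feeding at each adult age. At 6 months 19 of 53 genes were higher on CR with a median difference of -0.0195, at 16 months 18 with a median of -0.0105, and at 24 months 17 with a median of -0.00867. Over the 3 ages together 15 were higher with a median of -0.0157. No gene passed an adjusted p of 0.05 (backgrounds 0.0257% at 6 months, 0.0% at 16 and 24 months and 0.0129% over the 3 ages). At an unadjusted p under 0.05 stood 3 genes at 6 months (5.66%, background 7.70%), none at 16 months (background 0.797%), 1 at 24 months (1.89%, background 7.35%) and 2 over the 3 ages (3.77%, background 10.5%). These counts are small, and their distance from the background was not tested. Without arrays 31 to 33 the medians were 0.00275 at 6 months and -0.00743 over the 3 ages. The runs differed in sign. At 16 months the median was -0.0293 in run 1 with 9 genes higher and 0.0426 in run 2 with 46 higher, and at 24 months it was -0.0563 in run 1 with 10 higher and 0.032 in run 2 with 36 higher.

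Mean Z over the 53 genes without the 3 arrays was 0.468 ± 0.0457 in CR mice (n = 6) and 0.465 ± 0.0266 in AL mice (n = 9) at 6 months, 0.49 ± 0.0445 in CR mice and 0.497 ± 0.0336 in AL mice at 16 months (n = 10 each), and 0.478 ± 0.0311 in CR mice (n = 7) and 0.492 ± 0.0392 in AL mice (n = 10) at 24 months. Each diet difference was within 1 SD.

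At 6 months the smallest p was that of Rps15, with 0.933, 1.0 and 1.1 (lowest, median and highest) in CR mice (n = 8) and 0.393, 0.945 and 0.993 in AL mice (n = 10), the lowest being array 33. The difference was 0.117 (SE 0.0425, adjusted p = 0.554) with all arrays and 0.0369 (SE 0.0277) in the run-adjusted fit. Rplp0 and Rplp2, proteins of the stalk, differed by -0.139 and -0.12 with all arrays and by -0.00683 and -0.0423 in the run-adjusted fit, Rpl8 by 0.109 and 0.0229, and Rpl22l1 by -0.0772 and -0.0345. At 16 months Rpl39 (0.078), Rpl24 (-0.064), Rps26 (-0.042), Rpl32 (-0.027) and Rpl23a (-0.039) had the smallest p, the least being 0.238.

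At 24 months the gene at an unadjusted p under 0.05 was Rpl10a (-0.0805, SE 0.0393, adjusted p = 0.636). In the run-adjusted fit Rpl10a (-0.0639, SE 0.0261, adjusted p = 0.179) and Rps29 (-0.096, SE 0.0353, adjusted p = 0.14) were nearest to the threshold. Rps29 had 0.53, 0.61 and 0.73 in 24-month CR mice (n = 7) and 0.60, 0.67 and 0.78 in 24-month AL mice (n = 10), and the ranges overlapped. Within run 1 it differed by -0.163 and within run 2 by -0.0129. Rpl24, Rpl8 and Rpl6 differed by -0.102, 0.0785 and 0.0719 with all arrays. Over the 3 ages the 5 smallest p belonged to Rpl8 (0.0647, SE 0.0299), Rps15 (0.0507, SE 0.0242), Rps26 (-0.0505), Rps29 (-0.0531) and Rplp0 (-0.0656).

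The difference between diets in the age effect was tested as an interaction. For 16 against 6 months the median interaction was 0.0163 with 29 of 53 genes positive, and at 24 against 6 months 0.0135 with 30 positive. No gene was called (background 0.0% for both). Only Rps15 at 16 months (-0.123, SE 0.058) was under an unadjusted p of 0.05, which is 1.89% of the members (background 2.88%), and none at 24 months (background 1.54%). At 16 months Rplp0, Rpl8, Rpl13 and Rpl24 followed with 0.162, -0.102, 0.111 and -0.097. Without arrays 31 to 33, mean Z of Rpl13 at 16 and 6 months was 0.507 and 0.50 on CR, and 0.476 and 0.478 on AL. At 24 months Rpl24, Rpl10a, Rps15, Rplp2 and Rpl21 came first, with -0.135, -0.0741, -0.0749, 0.121 and 0.132. Within run 1, without arrays 31 to 33, the medians were -0.038 with 3 genes positive and -0.0546 with 8 positive. None of the 53 interactions was called.

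Adult males were compared with adult females over ages and diets. Only 6 of the 53 genes were higher in males, with a median difference of -0.0377, and without arrays 31 to 33 there were 14 and the median was -0.0152. None was called (background 0.0%). Rpl5, of the 5S particle (-0.102, SE 0.041, adjusted p = 0.991), and Rps26, at the mRNA exit (-0.0566, SE 0.0254, adjusted p = 0.991), were under an unadjusted p of 0.05, which is 3.77% of the members (background 3.51%). Rpl4, Rpl27 and Rpl24 followed at -0.0768, -0.0705 and -0.0573. In the run-adjusted fit Rpl5 differed by -0.0546 and Rps26 by -0.0412.

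The sex difference of the step from 6 to 24 months on AL had a median of 0.116 with 48 of 53 genes positive when all arrays were used, and of -0.0188 with 19 positive without arrays 31 to 33, array 33 being a male of 6 months. No gene was under an adjusted p of 0.05 (background 0.0%) or an unadjusted p of 0.05 (background 1.17%). Rps14, Rps9, Rps21, Rpl31 and Rps10 had interactions of 0.232, 0.358, 0.168, 0.17 and 0.186 with all arrays. Array 33 was the lowest 6-month AL male for each of them, at -0.4, -1.8, 0.267, 0.693 and -0.4975 in that order. These interactions thus include that array, and their values without it are not given here. The sex difference of the CR effect had a median of 0.0213 with 39 positive, and none was under either threshold (backgrounds 0.0% and 3.29%). Rpl34 (0.0849), Rpl6 (0.0929), Rps26 (0.0694), Rpl35a (-0.0728) and Rpl3 (0.117) had the smallest p there.

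**Figure D4:**
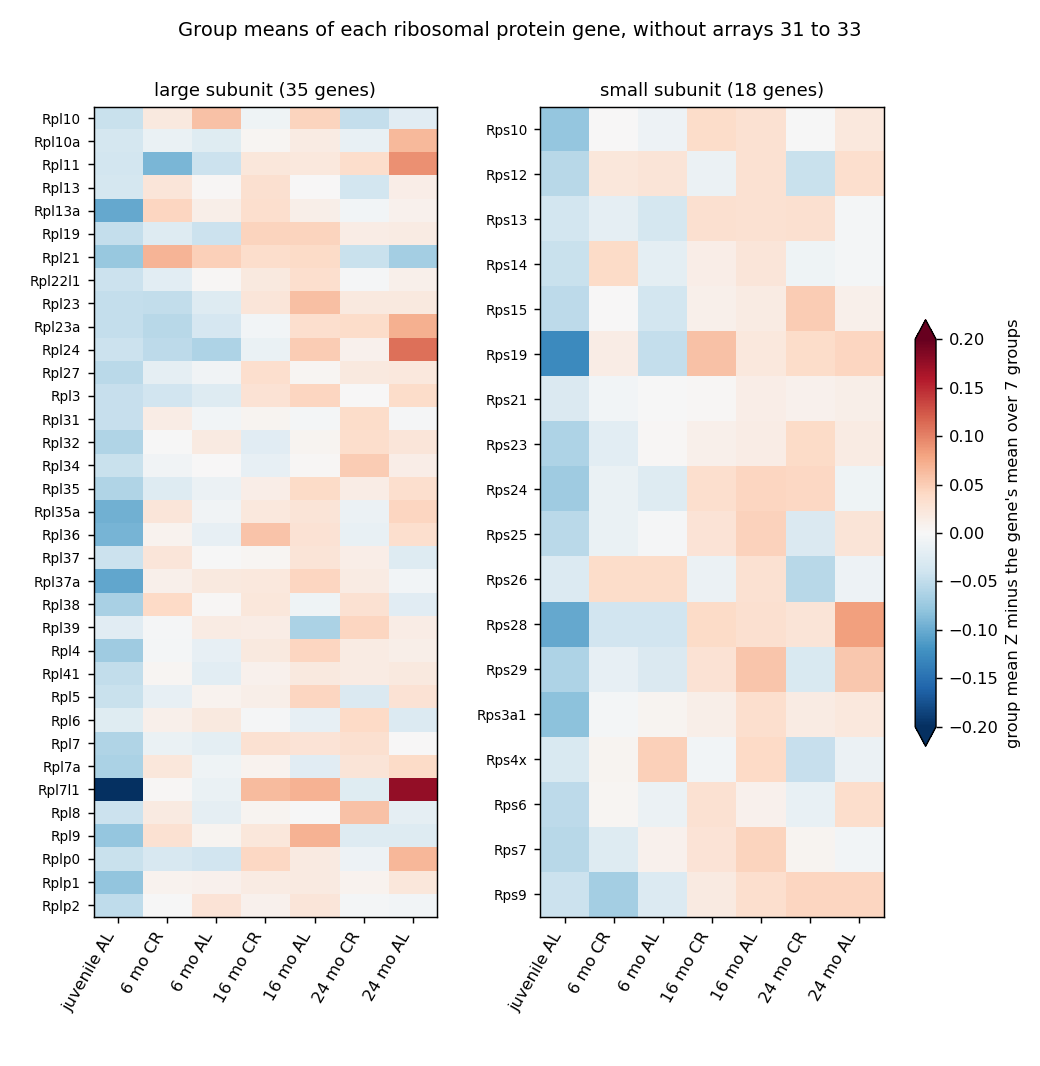
Mean Z of each gene in 7 groups of age and diet without arrays 31 to 33, as the difference from that gene's mean over the groups (color scale in Z units), for 35 large and 18 small subunit genes. The juvenile column is below the gene's mean for most genes, as in the 51 of 53 genes that were higher at 6 months, and the adult columns hold both signs.

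By place in the ribosome, the groups of genes had medians of the same sign. At 16 against 6 months on AL with all arrays, the 35 large subunit genes had a median of 0.091 with 33 higher, and the 18 small subunit genes 0.118 with 18 higher. In the run-adjusted fit these medians were 0.0378 and 0.0484. The 7 measured genes of the 40S head (of 14 listed) had a median of 0.0579 and the 11 of the body and platform (of 16) 0.0374 in that fit. The 5 of the stalk and 5S particle (of 6) had 0.0379 and the 6 of the tunnel exit (of 9) 0.0324. Of 19 genes mutated in human Diamond-Blackfan anemia, 13 were measured, with a median of 0.0379. These lists share members, and none of their genes was called.

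Other genes of translation were set beside the 53, with no test between lists. In the run-adjusted fit, at 6 months against juveniles, the 24 mitochondrial ribosomal protein genes had a median of -0.0072 with 11 higher, the 26 initiation and elongation factors -0.0023 with 12 higher and the 20 measured ribosome biogenesis genes (of 48) -0.0059 with 9 higher. The 7 measured other TOP transcripts (of 16), among them Eef1a1, which delivers aminoacyl-tRNA, had a median of 0.0027 with 4 higher. Both measured ribosomal proteins outside the symbol rule, Rpsa and Fau, were higher, with a median of 0.0641. The 53 genes had 0.0421 with 51 higher in the same fit. At 16 against 6 months on AL the medians were 0.0287 with 18 of 24 higher for the mitochondrial ribosome and 0.0301 with 21 of 26 higher for the factors. Those of ribosome biogenesis and of the other TOP transcripts were 0.006 and 0.0108. None of these genes was called in either comparison.

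Mice of the same group differed together in these genes. After group means were removed, the median correlation between pairs of the 53 genes over all 65 arrays was 0.605, against 0.0123 for all named genes. Without arrays 31 to 33 it was 0.25, and with the run also removed 0.305 (62 arrays), against -0.0023 for all named genes, 0.0356 for the mitochondrial ribosome and 0.0485 for the factors. It was 0.272 among large subunit genes, 0.35 among small subunit genes and 0.332 between the subunits. These are descriptions, since the genes share arrays and their normalization.

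**Figure D5:**
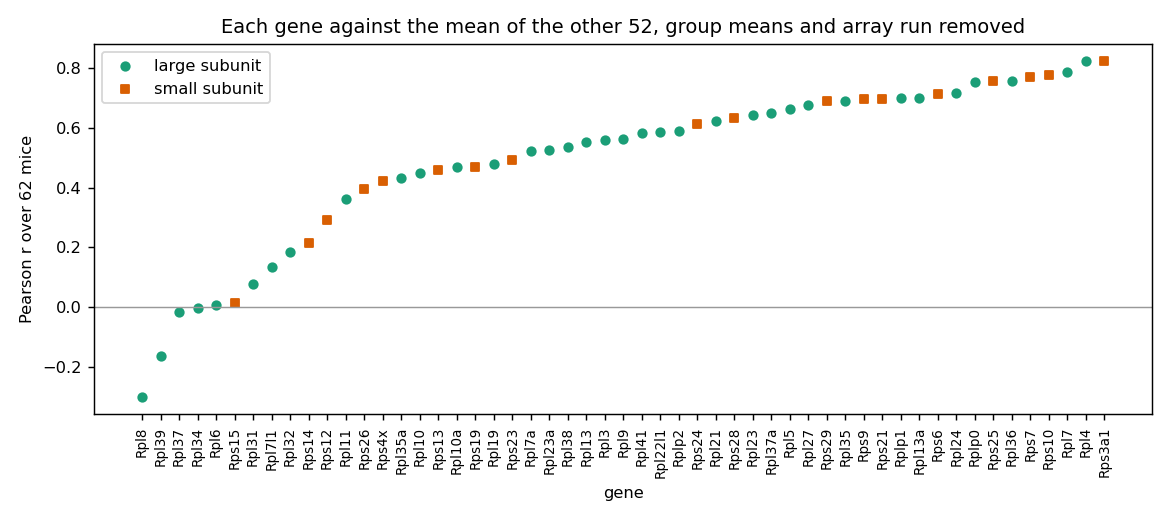
Pearson correlation over 62 mice (vertical axis) of each gene with the mean of the other 52, group means and array run removed, in rising order, with circles for the large and squares for the small subunit. Values run from -0.303 (Rpl8) to 0.826 (Rps3a1), and 32 of the 53 genes are above 0.5.

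Rps3a1 (0.826) and Rpl4, which lines the peptide tunnel (0.824), followed the mean of the other members most closely, before Rpl7 (0.788), Rps10 (0.777) and Rps7 (0.772). Rpl8 (-0.303) and Rpl39 (-0.165) ran against it, and Rpl37, Rpl34 and Rpl6 were near 0 (-0.0179, -0.0027 and 0.0066). Rpl8 and Rpl39 were also the genes of highest mean Z as averages of their features. Outside the list, 2.82% of named genes had a correlation above 0.5 with the members' mean. The 10 with the highest were Bcas2 (0.768), Car2 (0.765), Uchl1 (0.762), Cst3 (0.743), Gpx4 (0.739), Sod1 (0.738), Plcg2 (0.722), Fgfr1op2 (0.721), Ldhb (0.717) and Atp5o (0.715), over 62 mice.

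Position on the filter moved with these correlations. Over all features, pairs of different rows whose feature numbers were 22 apart had a median correlation of 0.554 and adjacent ones 0.437, against 0.175 at 220 apart. Features of different members had a median of 0.371 when at most 2000 apart and 0.153 when farther apart, where all features farther apart had -0.0725. Its part in the members' covariation was not tested beyond these values.

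Features of 1 gene were also set side by side. In 23 genes with 2 to 4 features there were 62 pairs, with a median correlation between mice of 0.412, and 43.5% were above 0.5, against 0.25 and 15.5% for 4216 pairs of features of different members. In the 14 pairs whose feature numbers were 44 or 88 apart the correlation was 0.604 to 0.945 (median 0.727). In the other 48 it was -0.323 to 0.80 (median 0.282). Over all features, pairs of different rows 44 apart had a median of 0.476, so clone and position cannot be told apart in the 14. Correlations were high for Rps24 (0.889), Rpl7a (0.853) and Rpl41 (0.80). The pairs of Rps24 and Rpl7a are among the 14, and that of Rpl41 is not. Correlations were low for Rpl10a (-0.146), Rpl38 (-0.0978) and the 3 features of Rps21 (-0.323 to 0.286). In mean Z, the features of Rpl10 ranged from 0.242 to 1.72, those of Rpl31 from 0.549 to 1.69 and those of Rps15 from 0.556 to 1.71.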

How the data were processed

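Radioactive cDNA was hybridized to nylon filters and quantified in ArrayPro. The authors turned each array's signals into a Z score before deposit (mean 0 and SD 1 over its features), which hides any shift that most features share. How background was treated and which log was taken is not given in the sources used here. Depth does not apply to them, so precision rests on how many arrays each group had. The 4875 features with 1 symbol were averaged per gene, and the others were kept as rows of their own (7782 rows).

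Members and gene lists were chosen with earlier results of these data known. limma 3.58.1 (R 4.3.3) was fitted to all 65 arrays with 14 group means (stage, diet and sex), sexes weighted equally, and adjusted by Benjamini-Hochberg over all rows. The script was tested on simulated data. Each mouse was 1 array. Named were the 5 members of smallest p in each comparison, those against the common sign, and the highest and lowest mean Z. Juveniles were divided at 25 days. One array, the 24-month AL male replicate 2, had a description that differed from its title and was kept by its title. Alternatives were other scalings, feature choices, arrays 31 to 33 left out, array weights, the run, rounds of 14 arrays as a block, each mouse left out, and the methods' selection (mean Z above 0, z-ratio of 1.5 and p under 0.05). The methods do not name the test behind that p, a test of 2 samples was used for it, and the analysis of variance that followed it in the methods was left out. Promoter windows are from RefSeq (GRCm38.p6).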

Additional observations from a re-analysis of the deposited data

Results flagged for a closer look

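Single mice were set against the rest of their group of age, diet and sex for 11 quantities, the members' mean and 10 genes. Groups of 3 mice, the CR males of 6 months (with array 31) and of 24 months, were not tested. Dixon's criterion, which chance meets in about 1 in 20 tests, was applied to 132 pairs of a group and a quantity. In these 23 values stood out, and 13 of them were on arrays 31 to 33. The pairs share mice, and the members' mean includes the genes, so they are not independent tests. On array 33 (6-month AL male replicate 3) these were the members' mean Z (-0.172), Rps28 (-1.09), Rps29 (0.29), Rps13 (-0.22), Rpl23 (-0.34), Rps3a1 (-0.33), Rpl7l1 (1.36) and Rpl8 (1.38). On array 32 (6-month CR female replicate 3) they were the members' mean Z (0.0917), Rps29 (0.15), Rplp0 (-0.64), Rps3a1 (0.143) and Rpl7l1 (0.83).

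In juveniles Rpl7l1 was at -3.47 in female replicate 2, Rps29 at 0.74 in female replicate 1 and Rpl8 at 1.96 in female replicate 5. In 6-month AL female replicate 3, Rpl24 was at 0.84 and Rps28 at 0.06. At 16 months on CR, Rps28 was at -0.22 in female replicate 4, and Rps13 at 0.58 in female replicate 1 and at 0.52 in male replicate 1. At 24 months Rpl35a was at 0.13 in CR female replicate 1 and Rpl23 at 0.68 in AL male replicate 1.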

How the results depend on the processing

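No paired analysis was possible because the labels give no replicate numbers, but rounds of 14 consecutive array numbers were fitted as a block. The number of arrays and the 3 odd arrays at 6 months limit every comparison with that age. Under alternatives other than leaving out 1 mouse, the count called stayed at its value in 247 results and moved in 4, the median moved in 39 and not in 202, and a named gene reversed in 31, passed the threshold in 4 and did neither in 1158. The causes were not tested. Centring with the run in the fit was added after the data were seen. At 24 against 6 months on AL, 6 members were called with array weights (22.2% of all rows), 1, Rpl24, with rounds of arrays as a block (1.03%) and 1, also Rpl24, by the methods' selection (1.75%), which took 2 at 16 against 6 months on CR (0.694%). The array weights were estimated without reaching the tolerance for convergence.

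Medians at 16 against 6 months on AL were 0.0357 without arrays 31 to 33, 0.0382 with the run also in the fit, 0.0384 with array weights, 0.0565 centred on feature positions, 0.0295 with centring and run together, and -0.042 in run 2. At 24 against 6 months on AL they were 0.0226, 0.0335, 0.0169, 0.05, 0.0376 and -0.0398 in that order. At 16 against 6 months on CR they were 0.0212, 0.0295, 0.0293, 0.0793 and 0.0384, with 0.0175 in run 1. At 24 against 6 months on CR they were 0.0202, 0.0282 and 0.022 for the first 3, 0.0385 with centring and run, and 0.00211 in run 1. At 6 months against juveniles they were 0.047, 0.0421 and 0.0454 for the first 3, 0.0297 with centring and run, 0.0437 in run 1 and 0.0862 in run 2. The sex difference of 24 against 6 months on AL was -0.0188, -0.0159 and -0.00634 for the first 3 and -0.0017 with centring and run. CR against AL gave 0.0426 at 16 months in run 2 and -0.0563 at 24 months in run 1, and the diet differences in run 1 were -0.038 at 16 and -0.0546 at 24 against 6 months. Older against younger juveniles gave -0.119 with rounds as a block, and the sex difference of CR against AL gave -0.0209 with array weights.

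With each mouse left out in turn, the medians ranged from 0.0357 to 0.123 at 16 and from 0.0226 to 0.115 at 24 against 6 months on AL, and from 0.0657 to 0.161 and from 0.0582 to 0.137 on CR. They ranged from -0.0451 to 0.047 at 6 months against juveniles, from -0.0837 to 0.0252 for CR against AL at 6 months, from -0.0318 to 0.0805 and from -0.0378 to 0.077 for the diet differences at 16 and 24 against 6 months, from -0.0188 to 0.162 for the sex difference of 24 against 6 months on AL, and from -0.0232 to 0.0514 for that of CR against AL. For older against younger juveniles they ranged from -0.0575 to -0.0192 and for adult males against females from -0.0539 to -0.020. The count called at 16 against 6 months on CR ranged from 0 to 1. For the age differences among adults, leaving out array 33 gave the low end on AL and leaving out array 31 gave it on CR.

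In run 2, Rpl24 reversed at 16 against 6 months on AL (-0.0187) and for CR against AL at 16 (0.0312) and 24 months (0.00374), Rpl23a at 24 against 6 months on AL (-0.0658) and for CR against AL at 16 months (0.00789), and Rpl7l1 at 6 months against juveniles (-0.00198). In run 1, Rpl11 reversed at 24 against 16 months on AL (-0.00667), Rpl35 (-0.0105), Rplp0 (-0.0472) and Rps19 (-0.0222) at 24 against 6 months on CR, Rplp0 for CR against AL at 6 months (0.0134), Rplp0 (-0.0168) and Rpl13 (-0.0511) in the diet difference at 16, and Rplp2 (-0.020) and Rpl21 (-0.0798) in that at 24 against 6 months. Rpl21 was at -0.00975 there with the run in the fit, and Rps15 at 0.0058 with it and 0.00533 without arrays 31 to 33. At 6 months against juveniles, Rps9 was at 0.0168 without arrays 31 to 33 or array 33 alone, 0.0204 with the run, 0.00901 with array weights, 0.0247 with centring and run, 0.0608 in run 1 and 0.00483 in run 2. Rps13 there was at 0.005 without arrays 31 to 33 or array 33 alone, 0.00842 with array weights and 0.00792 in run 1. Array weights turned Rplp0 for CR against AL at 6 months (0.00619) and over the 3 ages (0.000536). Rpl7 at 24 against 6 months on CR was at -0.00025 from its feature of highest mean Z, and Rpl10a in older against younger juveniles at 0.00659 with rounds as a block. With each mouse left out in turn, Rpl7l1 ranged from -0.0205 to 0.482 for 6 months against juveniles and from -0.153 to 0.839 for older against younger juveniles, both low ends without juvenile female replicate 2. Rps9 ranged from -0.188 to 0.0168 and Rps13 from -0.08 to 0.005 for 6 months against juveniles.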
